A study of Homo sapiens with 12 samples.

Results

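LNCaP cells, a human prostate cancer cell line that needs androgen for full growth, were given an inhibitor of the kinase mTOR in the presence of androgen, and all 11517 genes detected on the arrays were compared with androgen alone. After 48 h in steroid-free medium the cells received Torin 1 (100 nM) plus R1881 (10 nM), or R1881 (10 nM) with the solvent of Torin 1, for a further 48 h. Torin 1 is an inhibitor of the mTOR kinase in both of its complexes, and R1881 is a synthetic androgen that binds the androgen receptor. The series also holds cells given Torin 1 (100 nM) without androgen and cells given vehicle only, in the same steroid-free medium, and the solvents were ethanol and DMSO. RNA of each of the 4 groups was hybridized to 3 Illumina HumanHT-12 V4 arrays, 12 in all, so every value below has n = 3 per group. The 6 arrays of Torin 1 + R1881 and of R1881 carry the main comparison. Groups were taken from the sample titles. Of 47323 probes, 20413 had a detection p-value under 0.05 on at least 3 of the 12 arrays, and the 15137 of these with 1 gene symbol gave the 11517 genes. All cells come from 1 cell line, and the labels do not say whether replicates were separate cultures, so p-values measure the spread between these samples only.

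mTOR is a kinase that works in a pair of complexes. Complex 1 promotes ribosome production, protein, lipid and nucleotide synthesis and restrains autophagy, and complex 2 activates AKT and SGK kinases, which keep FOXO transcription factors out of the nucleus. Androgen receptor signalling in prostate cells drives a secretory and metabolic gene programme. Adding Torin 1 to R1881 asks what the cells' RNA looked like when mTOR was inhibited while the androgen receptor was engaged.

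The arrays of a group resembled each other more than those of the other group. Pearson's r over all tested genes was 0.9918 to 0.994 within the pair of groups and 0.9602 to 0.9639 between them, and the median SD of a gene was 0.11 log2 in Torin 1 + R1881 cells and 0.113 in R1881 cells. Between 16681 and 17195 probes were detected per array in Torin 1 + R1881 cells, against 16837 to 17829 in R1881 cells. The luminal and prostate genes KRT8, KRT18, HOXB13, FOLH1, KLK3, EPCAM and CDH1 were detected on all 6 arrays. The basal keratins KRT5 and KRT14, the stromal genes COL1A1, COL1A2, COL3A1, LUM and PDGFRB and the immune genes CD3D, CD14 and MS4A1 were detected on none of the 6, and DCN and PTPRC on 1 R1881 array each.

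Torin 1 moved a large share of the transcriptome of androgen-treated cells. In limma's fit with Benjamini-Hochberg adjustment over all genes, 5233 of 11517 genes (45.4%) had an adjusted p under 0.05 and are here said to be called, 2662 of them higher (23.1%) and 2571 lower (22.3%) in Torin 1 + R1881 cells. The changes were mostly modest, with a median size of 0.486 log2 among called genes, and 1919 genes (16.7%) were called with at least a 1.5-fold change. At the far end the balance shifted toward loss: 204 genes rose and 365 fell by 2-fold or more, and 12 rose and 75 fell by 4-fold or more. For 6038 genes (52.4%) every Torin 1 + R1881 array lay on the same side of all R1881 arrays. Levels below are normalized log2 values and changes are Torin 1 + R1881 minus R1881 on that scale, with the standard error of the fit.

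**Figure D1:**
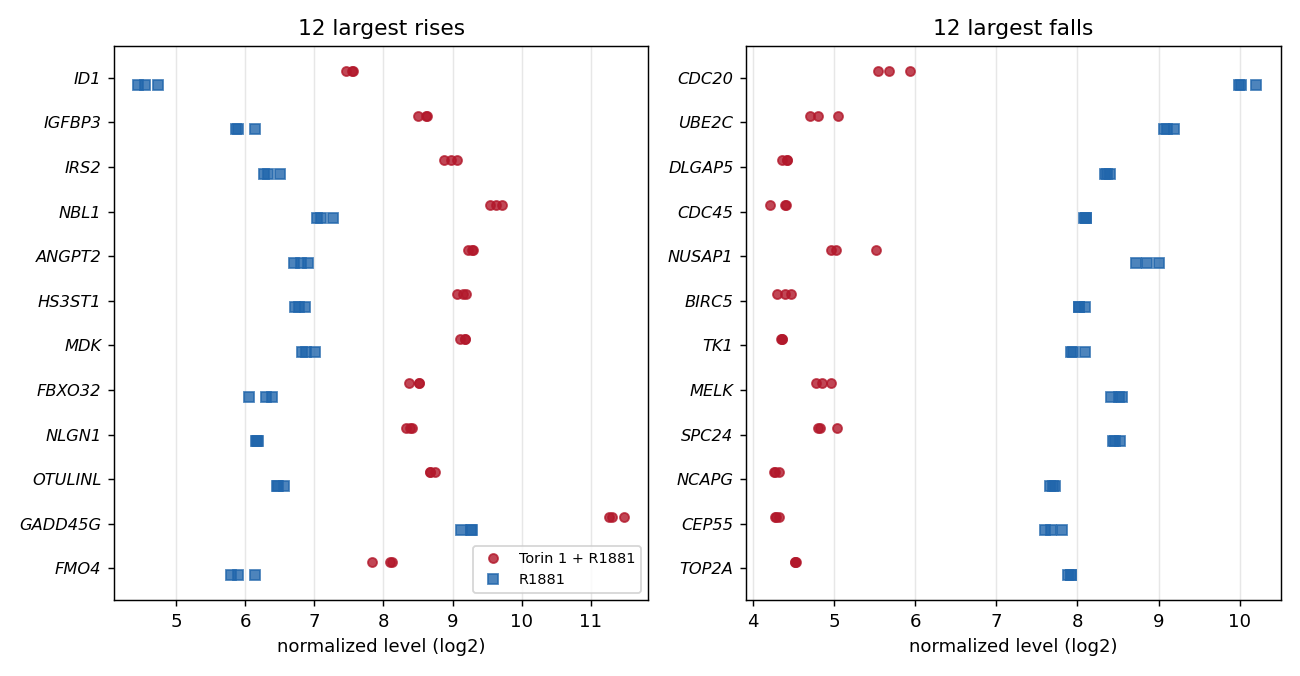
Normalized log2 level on each array (horizontal axis) of the 12 genes that rose most and the 12 that fell most, with Torin 1 + R1881 arrays as red circles and R1881 arrays as blue squares. Groups that do not overlap were part of the rule that picked the 24 genes, and this held for 52.4% of all genes. Several of the fallen genes lie close to the lower end of the scale with Torin 1 + R1881.

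The largest falls were in genes of cell division: of 62 measured members of the G2/M and mitosis list, 58 were called lower (93.5%, against 22.3% of all genes), none was called higher, and BUB1B, ESPL1, KIF18A and KIF22 were not called. The median change was -2.02, against 0.01 over all genes, and -1.87 with 30 members that were undetected in 1 group set to their bound. In these bulk samples fewer cells of a type and less RNA per cell cannot be told apart.

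CDC20, which activates the anaphase-promoting complex, had levels of 5.93, 5.54 and 5.67 in Torin 1 + R1881 cells, against 10.01, 9.99 and 10.20 in R1881 cells. It fell 20.4-fold (log2 -4.35 ± 0.11, SE, adjusted p = 3.92e-12). Its partner enzyme UBE2C stood at 5.04, 4.80 and 4.70 in Torin 1 + R1881 cells, against 9.06, 9.19 and 9.11 in R1881 cells, and it fell 19.3-fold (log2 -4.27 ± 0.10, SE, adjusted p = 2.53e-12), although it was detected on only 1 Torin 1 + R1881 array and its other kept probe changed by only -0.22. DLGAP5, a stabilizer of spindle microtubules, was at 4.42, 4.42 and 4.36 in Torin 1 + R1881 cells, against 8.36, 8.34 and 8.39 in R1881 cells. It was not detected on any Torin 1 + R1881 array and was at least 11.9-fold lower (log2 -3.97 ± 0.08, SE, adjusted p = 1.32e-12, from measured means of 4.40 and 8.37), with -3.66 on its other probe. BIRC5, the survivin subunit of the chromosomal passenger complex, was at least 9.51-fold lower (log2 -3.65 ± 0.08, SE, adjusted p = 1.42e-12, from measured means of 4.39 and 8.04), but its other kept probe changed by -0.56. NCAPG, a condensin subunit, was at 4.26, 4.32 and 4.27 in Torin 1 + R1881 cells, against 7.70, 7.66 and 7.73 in R1881 cells, and it was at least 7.48-fold lower (log2 -3.41 ± 0.07, SE, adjusted p = 1.34e-12, from measured means of 4.29 and 7.70). These genes were bright in every R1881 array and dim in every Torin 1 + R1881 array.

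The same held across the machinery of division. NUSAP1, a spindle protein, stood at 5.52, 5.02 and 4.96 in Torin 1 + R1881 cells, against 8.72, 8.86 and 9.001 in R1881 cells, and fell 12.9-fold (log2 -3.69 ± 0.13, SE, adjusted p = 1.16e-10), with -2.46 on its other probe. The kinase MELK fell 12.4-fold (log2 -3.63 ± 0.07, SE, adjusted p = 1.32e-12) and was detected on 2 of 3 Torin 1 + R1881 arrays. SPC24, of the kinetochore's NDC80 complex, fell 12-fold (log2 -3.59 ± 0.10, SE, adjusted p = 2.1e-11). CEP55, which acts in the last step of cytokinesis, was at least 7.46-fold lower, and TOP2A, the topoisomerase that untangles chromosomes, at least 8.66-fold lower. Of the cyclins and kinases of mitosis, CDK1 fell 7.68-fold, CCNA2 7.25-fold, CCNB2 7.4-fold, CCNB1 3.69-fold and the Aurora kinase AURKA 7.82-fold. PLK1, a mitotic kinase that was undetected in Torin 1 + R1881 cells, was at least 1.4-fold lower, and FOXM1, a transcription factor of G2/M genes, at least 2.61-fold lower. The smallest called fall was that of the checkpoint gene BUB3, at -0.26 ± 0.08.

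Promoters of this group are shown because their members moved together. The cell cycle homology region (CHR), a short element of late cell cycle promoters, was searched on both strands as TTTGAA or TTCGAA from 250 bases before to 50 bases after each gene's start. It was present in 39 of 52 mitosis promoters in the RefSeq table (75.0%), against 11.5% of the promoters of 9279 tested genes. CCAAT, the letters of the NF-Y box, was in 73.1% of the mitosis promoters, against 37.6%, and matches of the 2 motifs overlapped in 34 promoters of the whole table. Other lists searched had CCAAT in 27.3% (glycolysis) to 68.2% (cholesterol) of promoters, so it is not particular to the mitosis list. Both members printed here have a CHR match and were among the called members with the smallest adjusted p (GRCh38.p14, RefSeq, capitals mark CHR and CCAAT matches on either strand). DLGAP5 lies at chr14:55191536-55191835, minus strand, and NCAPG at chr4:17810729-17811028, plus strand.
DLGAP5: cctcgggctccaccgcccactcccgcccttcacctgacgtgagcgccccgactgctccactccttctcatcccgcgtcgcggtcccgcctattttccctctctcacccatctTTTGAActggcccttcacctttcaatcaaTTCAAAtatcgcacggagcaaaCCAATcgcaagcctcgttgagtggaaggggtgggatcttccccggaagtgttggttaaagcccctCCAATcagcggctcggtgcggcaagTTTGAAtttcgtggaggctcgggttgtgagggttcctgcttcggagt
NCAPG: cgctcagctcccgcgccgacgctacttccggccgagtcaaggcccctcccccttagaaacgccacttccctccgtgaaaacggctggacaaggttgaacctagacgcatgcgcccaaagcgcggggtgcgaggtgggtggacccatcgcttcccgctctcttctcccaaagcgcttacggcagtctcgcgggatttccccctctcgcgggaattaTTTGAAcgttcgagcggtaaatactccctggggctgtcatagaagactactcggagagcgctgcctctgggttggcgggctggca
A match describes the letters only. Counted from the annotated start, CHR letters begin at -138, -109 and 3 in the first promoter and at -35 in the second.

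DNA synthesis genes followed. In the list of DNA replication and S phase 41 of 51 measured genes were called lower (80.4%, against 22.3%) and none higher, with a median of -0.96 that was -0.589 with no background correction and in the authors' processed table. CDC45, part of the replicative helicase, had levels of 4.21, 4.40 and 4.41 in Torin 1 + R1881 cells, against 8.08, 8.10 and 8.11 in R1881 cells, and it was at least 9.87-fold lower (log2 -3.75 ± 0.08, SE, adjusted p = 1.32e-12, from measured means of 4.34 and 8.10). TK1, which salvages thymidine, was at least 9.13-fold lower and undetected on all Torin 1 + R1881 arrays. MCM10, which helps to activate the helicase, was at least 4.78-fold lower, with -0.42 on its other probe, and RRM2, a subunit of ribonucleotide reductase, at least 3.17-fold lower. CDT1, which loads the MCM helicase, fell 5.85-fold (log2 -2.55 ± 0.12, SE, adjusted p = 1.49e-09) and was detected on only 1 Torin 1 + R1881 array. The helicase subunits MCM2 to MCM7 all fell, between 1.68-fold for MCM3 and 3.43-fold for MCM2, and PCNA, the sliding clamp, fell 2.26-fold. Not called were ORC1, POLD3, RPA1, RFC1, RPA2, LIG1, E2F1, ORC6, DBF4 and POLE.

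E2F motifs, the letters TTTCCCGC, TTTGGCGC or TTTCGCGC on either strand, were in 19 of 44 promoters of these replication genes (43.2%), against 4.58% of tested genes' promoters. The promoter of CDT1 is given as a called member with such a match, among those with the smallest adjusted p (chr16:88803539-88803838, plus strand, GRCh38.p14, RefSeq, the capitals marking the reverse complement of the first of these motifs, at -35 from the start).
CDT1: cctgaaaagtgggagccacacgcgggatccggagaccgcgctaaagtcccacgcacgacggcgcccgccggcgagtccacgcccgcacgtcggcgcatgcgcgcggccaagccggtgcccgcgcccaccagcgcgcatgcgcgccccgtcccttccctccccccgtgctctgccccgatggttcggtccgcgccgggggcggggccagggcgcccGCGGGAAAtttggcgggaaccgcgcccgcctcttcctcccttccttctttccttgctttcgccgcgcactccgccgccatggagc
Of 31 DNA repair genes 22 were called lower (71%, against 22.3% of all genes) and none higher. The median was -0.64, and -0.356 with no background correction. UBE2T, the E2 enzyme of the Fanconi pathway, was at 7.25, 7.29 and 7.37 in Torin 1 + R1881 cells, against 9.32, 9.37 and 9.26 in R1881 cells, and it fell 4.04-fold (log2 -2.02 ± 0.07, SE, adjusted p = 1.99e-10). The exonuclease EXO1 was at least 2.61-fold lower. Among the 9 members not called were XRCC5, XRCC6 and ATM, with changes of 0.22, -0.05 and 0.13.

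In G1, 3 of 17 genes rose and 6 fell (17.6% and 35.3%, against 23.1% and 22.3% of all genes). CCND1, cyclin D1, had levels of 9.48, 9.49 and 9.59 in Torin 1 + R1881 cells, against 10.26, 10.19 and 10.41 in R1881 cells, and it fell 1.7-fold (log2 -0.76 ± 0.08, SE, adjusted p = 4.08e-06). CCND3 fell 1.86-fold (log2 -0.90 ± 0.10, SE, adjusted p = 5.66e-06) and the inhibitor CDKN2D fell 1.68-fold (log2 -0.75 ± 0.09, SE, adjusted p = 1.14e-05). CDKN1B, the CDK inhibitor p27, was at 8.60, 8.48 and 8.33 in Torin 1 + R1881 cells, against 7.34, 7.77 and 7.71 in R1881 cells, and it rose 1.82-fold (log2 0.86 ± 0.12, SE, adjusted p = 6.88e-05). CDKN1A, p21, rose 1.23-fold (log2 0.29 ± 0.08, SE, adjusted p = 0.00641), and the pocket protein gene RBL2 rose 1.33-fold. For CCND1, CCND3, CDKN2D, CDKN1B and CDKN1A the groups did not overlap, which held for 52.4% of all genes.

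**Figure D2:**
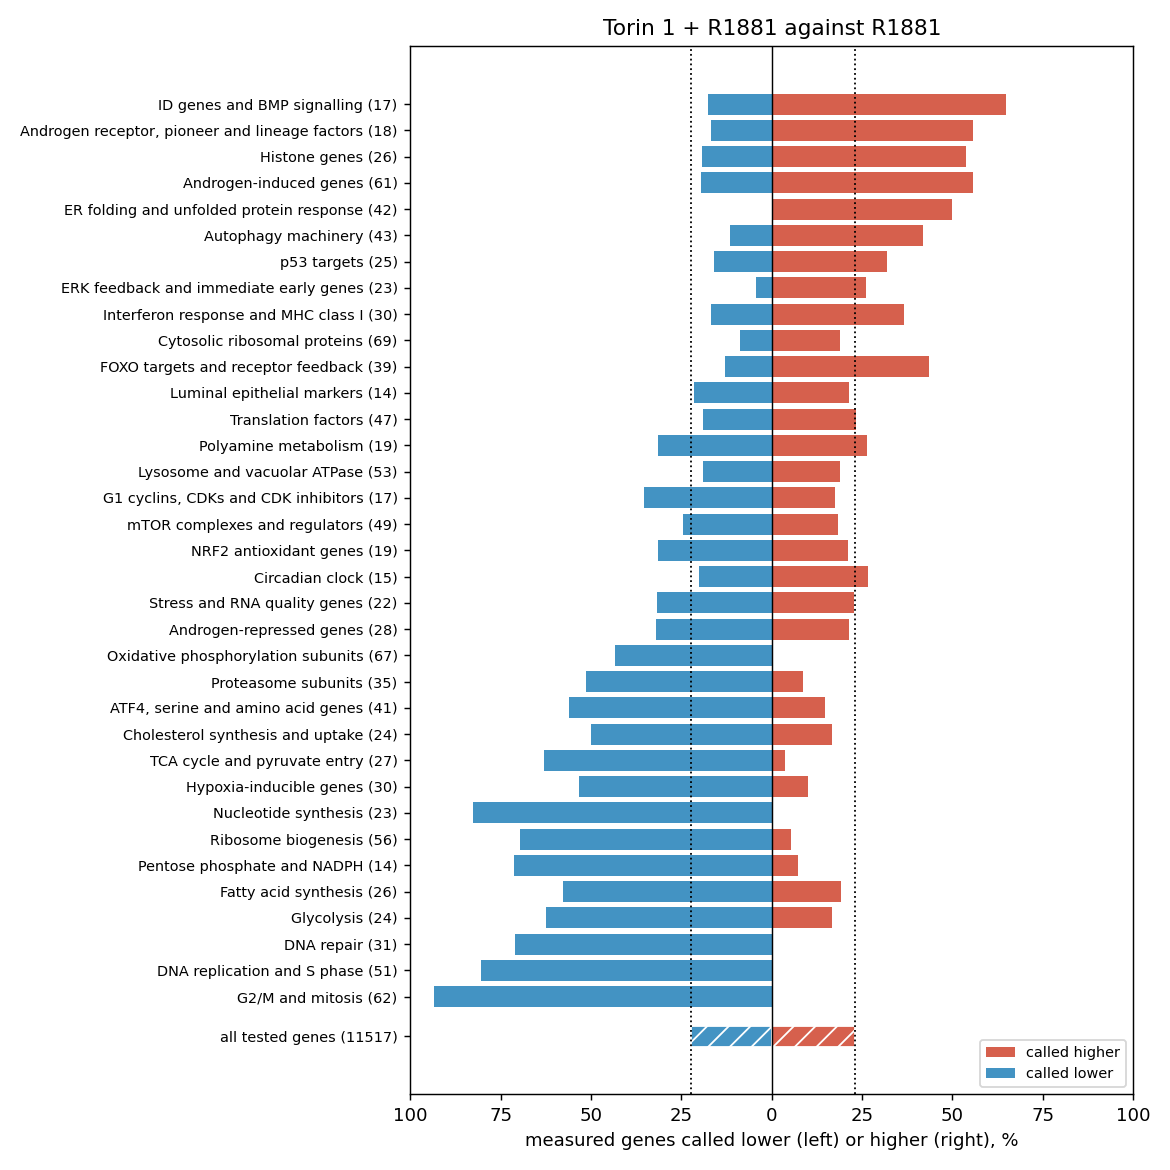
Percent of measured genes in each list called lower (blue, to the left) and higher (red, to the right) in Torin 1 + R1881 against R1881 cells, with the number of measured genes in parentheses and lists of at least 14 genes ordered by median change. Dotted lines mark all tested genes (22.3% lower, 23.1% higher). The mitosis list reaches 93.5% lower and the ER folding list 50% higher with no gene lower.

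Genes that FOXO factors induce and insulin signalling represses were split. Of 39 FOXO targets and receptor feedback genes 17 were called higher (43.6%, against 23.1% of all genes) and 5 lower, yet the median was only 0.03 and 17 members were not called. IRS2, the insulin receptor substrate, stood at 9.06, 8.88 and 8.97 in Torin 1 + R1881 cells, against 6.27, 6.500 and 6.33 in R1881 cells. It rose 6.08-fold (log2 2.60 ± 0.09, SE, adjusted p = 1.46e-10), the third largest rise of all genes. FBXO32, the atrogin-1 ubiquitin ligase subunit, was at 8.37, 8.51 and 8.51 in Torin 1 + R1881 cells, against 6.39, 6.06 and 6.30 in R1881 cells, and rose 4.64-fold (log2 2.21 ± 0.10, SE, adjusted p = 8.9e-10), with 1.23 on its other probe. TXNIP, a brake on glucose uptake, had levels of 10.59, 10.72 and 10.67 in Torin 1 + R1881 cells, against 9.25, 9.10 and 9.01 in R1881 cells, and it rose 2.9-fold (log2 1.54 ± 0.09, SE, adjusted p = 1.25e-08). KLF4 rose 2.96-fold, the repressor BCL6 2.57-fold and HBP1, a brake on G1 progression, 2.1-fold.

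The FOXO genes themselves were higher, FOXO1 1.69-fold, FOXO3 1.57-fold and FOXO4 1.26-fold. Among receptors, IGF1R was undetected in R1881 cells at 4.36, 4.51 and 4.46 and detected on all 3 Torin 1 + R1881 arrays at 4.94, 4.92 and 4.90, at least 1.12-fold higher (adjusted p = 0.000148), while ERBB2 rose 1.21-fold (log2 0.28 ± 0.09, SE, adjusted p = 0.0256) and ERBB3 was not called (0.01 ± 0.09). Members that fell were SESN3, SOD2, BNIP3, PCK2 and TRIB1, by 1.3-fold to 1.68-fold. Of 8 measured genes of the IGF axis 2 were called higher and 1 lower (25% and 12.5%, against 23.1% and 22.3% of all genes). The other 5 were not called, and the median was -0.02. IGFBP3, a binding protein of insulin-like growth factors, was at 8.61, 8.51 and 8.64 in Torin 1 + R1881 cells, against 6.14, 5.87 and 5.89 in R1881 cells. It rose 6.14-fold (log2 2.62 ± 0.10, SE, adjusted p = 4.41e-10). SOCS2, a feedback inhibitor of cytokine and growth hormone receptors, rose 1.41-fold (log2 0.49 ± 0.08, SE, adjusted p = 0.000265), and GRB14, an adaptor that inhibits the insulin receptor, fell 1.72-fold (log2 -0.79 ± 0.13, SE, adjusted p = 0.000206), with 0.14 on its other probe.

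The drug's target rose in RNA. MTOR stood at 9.35, 9.37 and 9.22 in Torin 1 + R1881 cells, against 8.13, 8.22 and 8.22 in R1881 cells, and it rose 2.17-fold (log2 1.12 ± 0.11, SE, adjusted p = 3.99e-06). In the list of mTOR complexes and regulators 9 of 49 genes were called higher and 12 lower, with a median of -0.07; the shares of 18.4% and 24.5% lie near those of all genes. RPTOR and RICTOR, the scaffolds of the 2 complexes, were near background and not called (-0.07 ± 0.13 and -0.05 ± 0.17). MLST8, shared by both complexes, changed by -0.23 ± 0.08 (adjusted p = 0.0329), a call lost without Torin 1 + R1881 replicate 1 or 2, without R1881 replicate 1 or 2 and in the authors' processed table.

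DDIT4 (REDD1), an inhibitor of complex 1, fell furthest in that list. Its levels were 6.60, 6.60 and 6.73 in Torin 1 + R1881 cells, against 9.66, 9.47 and 9.55 in R1881 cells, and it fell 7.55-fold (log2 -2.92 ± 0.08, SE, adjusted p = 2.1e-11). SGK1, a kinase that complex 2 activates, was at 8.83, 8.89 and 8.96 in Torin 1 + R1881 cells, against 7.49, 7.34 and 7.53 in R1881 cells, and it rose 2.72-fold (log2 1.44 ± 0.11, SE, adjusted p = 2.48e-07), with 1.64 on another probe. The complex 1 substrate EIF4EBP1, a repressor of cap-dependent translation, fell 1.67-fold, DEPTOR, an mTOR-binding inhibitor, 1.62-fold and the complex 2 subunit gene MAPKAP1 1.5-fold. INPP4B, a phosphoinositide phosphatase, rose 1.82-fold. AKT1, RHEB, TSC1 and AKT1S1 lay within 0.05 of 0 and were not called.

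Of 23 ERK feedback and immediate early genes, which respond to growth factors, 6 rose (26.1%, near the 23.1% of all genes) and JUN fell (4.35%, against 22.3%), with a median of 0.11. EGR1, an immediate early transcription factor, had levels of 6.92, 6.76 and 6.63 in Torin 1 + R1881 cells, against 4.92, 5.05 and 4.81 in R1881 cells, and it rose 3.6-fold (log2 1.85 ± 0.10, SE, adjusted p = 1.36e-08). FOS was undetected on all R1881 arrays and at least 2-fold higher (adjusted p = 1.14e-07), from measured means of 5.75 and 4.33. SPRED1, an inhibitor of RAF activation, rose 1.79-fold (log2 0.84 ± 0.09, SE, adjusted p = 3.59e-06), SPRY1 rose 1.67-fold and SPRED2 1.55-fold. MYC, the growth regulator, was at 9.75, 9.75 and 9.88 in Torin 1 + R1881 cells, against 9.80, 9.72 and 9.72 in R1881 cells, and it was not called (0.05 ± 0.08, adjusted p = 0.662), and neither were DUSP1, DUSP5, SPRY2 and SPRY4.

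BMP signalling raises ID proteins, which block helix-loop-helix transcription factors, and this list rose. Of 17 ID and BMP genes 11 were called higher (64.7%, against 23.1% of all genes) and 3 lower (17.6%, against 22.3%). The median was 0.43, and 0.033 with no filter on detection, where more dim members enter. ID1 was at 7.46, 7.56 and 7.54 in Torin 1 + R1881 cells, against 4.74, 4.46 and 4.56 in R1881 cells, the largest rise of all genes, and it rose 7.66-fold (log2 2.94 ± 0.11, SE, adjusted p = 1.83e-10), but it was detected on only 1 R1881 array and its other probe changed by 0.60. ID3 was undetected in R1881 cells and at least 2.94-fold higher, and ID2 rose 2.24-fold. NBL1, a secreted BMP antagonist, stood at 9.71, 9.63 and 9.55 in Torin 1 + R1881 cells, against 7.04, 7.10 and 7.27 in R1881 cells, and rose 5.64-fold (log2 2.50 ± 0.10, SE, adjusted p = 3.5e-10). The receptor BMPR1B rose 2.36-fold, SMAD4, the common mediator, 1.43-fold, and the decoy receptor BAMBI fell 1.58-fold.

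Among the other large rises, ANGPT2, a vascular ligand of TIE2, was at 9.22, 9.28 and 9.29 in Torin 1 + R1881 cells, against 6.91, 6.80 and 6.71 in R1881 cells, and rose 5.5-fold (log2 2.46 ± 0.07, SE, adjusted p = 2.84e-11). HS3ST1, a heparan sulfate sulfotransferase, rose 5.09-fold (log2 2.35 ± 0.08, SE, adjusted p = 1.24e-10), MDK, the growth factor midkine, rose 4.77-fold (log2 2.25 ± 0.08, SE, adjusted p = 1.89e-10), and NLGN1, a synaptic adhesion protein, rose 4.61-fold (log2 2.21 ± 0.07, SE, adjusted p = 9.12e-11). GADD45G, a growth arrest gene, was bright in both groups at 11.26, 11.30 and 11.48 in Torin 1 + R1881 cells, against 9.28, 9.26 and 9.12 in R1881 cells, and rose 4.37-fold (log2 2.13 ± 0.08, SE, adjusted p = 3.49e-10). OTULINL rose 4.58-fold and FMO4, a flavin monooxygenase, 4.21-fold.

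Serine and amino acid synthesis genes were lower with Torin 1 added. The list holds ATF4, serine and amino acid genes, which the factor ATF4 induces when amino acids are short. Of 41, 23 were called lower (56.1%, against 22.3% of all genes) and 6 higher (14.6%, against 23.1%). The median was -0.28. PSAT1, the aminotransferase of serine synthesis, had levels of 7.83, 7.82 and 7.91 in Torin 1 + R1881 cells, against 9.71, 9.63 and 9.65 in R1881 cells, and it fell 3.51-fold (log2 -1.81 ± 0.07, SE, adjusted p = 6.06e-10). PHGDH, the first enzyme of that path, was at 10.91, 10.76 and 10.96 in Torin 1 + R1881 cells, against 12.39, 12.23 and 12.43 in R1881 cells, and it fell 2.78-fold (log2 -1.47 ± 0.08, SE, adjusted p = 1.38e-08). PSPH, the last enzyme, fell 1.9-fold, so all 3 steps were lower. SHMT1, which passes serine's carbon to folate, fell 3.62-fold (log2 -1.85 ± 0.09, SE, adjusted p = 1.66e-09), with -0.09 and -1.45 on its other probes, SHMT2, its mitochondrial form, fell 1.58-fold and MTHFD2 1.78-fold.

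The pseudokinase TRIB3 fell 2.14-fold, ASNS, asparagine synthetase, 1.89-fold, and tRNA synthetase genes GARS1, IARS1, VARS1 and YARS1 1.51-fold to 1.67-fold. ATF4 itself rose 1.33-fold and DDIT3, the CHOP factor, 1.28-fold, and the amino acid carriers SLC38A2 and SLC38A1 rose 2.6-fold and 1.59-fold. The carriers SLC7A11, SLC3A2 and SLC1A5 were not called. The C/EBP-ATF response element (CARE), searched as TGATGNAA on both strands, was in 10 of 33 promoters of the list (30.3%), against 1.64% of tested genes' promoters. The promoter of ASNS is printed as a called member with a match, among those with the smallest adjusted p (chr7:97872359-97872658, minus strand, GRCh38.p14, RefSeq, capitals marking the match at -68 from the start).
ASNS: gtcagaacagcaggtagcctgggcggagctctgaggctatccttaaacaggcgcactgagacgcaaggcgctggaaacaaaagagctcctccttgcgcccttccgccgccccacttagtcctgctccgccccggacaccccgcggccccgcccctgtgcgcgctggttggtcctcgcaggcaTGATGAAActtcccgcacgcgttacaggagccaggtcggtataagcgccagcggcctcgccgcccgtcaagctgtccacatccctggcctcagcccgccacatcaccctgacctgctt
Without androgen, Torin 1 against vehicle called 8 of its 41 genes higher and 4 lower (median 0.02), where 16.2% and 15.6% of all genes were. The test of the difference between the 2 effects was called for 25 of 41 members, 21 of them more negative with R1881 and 4 more positive, where 7.09% and 7.87% of all genes were. For PSAT1 the difference was -1.66 ± 0.11 (adjusted p = 8.7e-07), with 10.59, 10.59 and 10.49 in Torin 1 cells, against 10.67, 10.82 and 10.64 in vehicle cells.

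**Figure D3:**
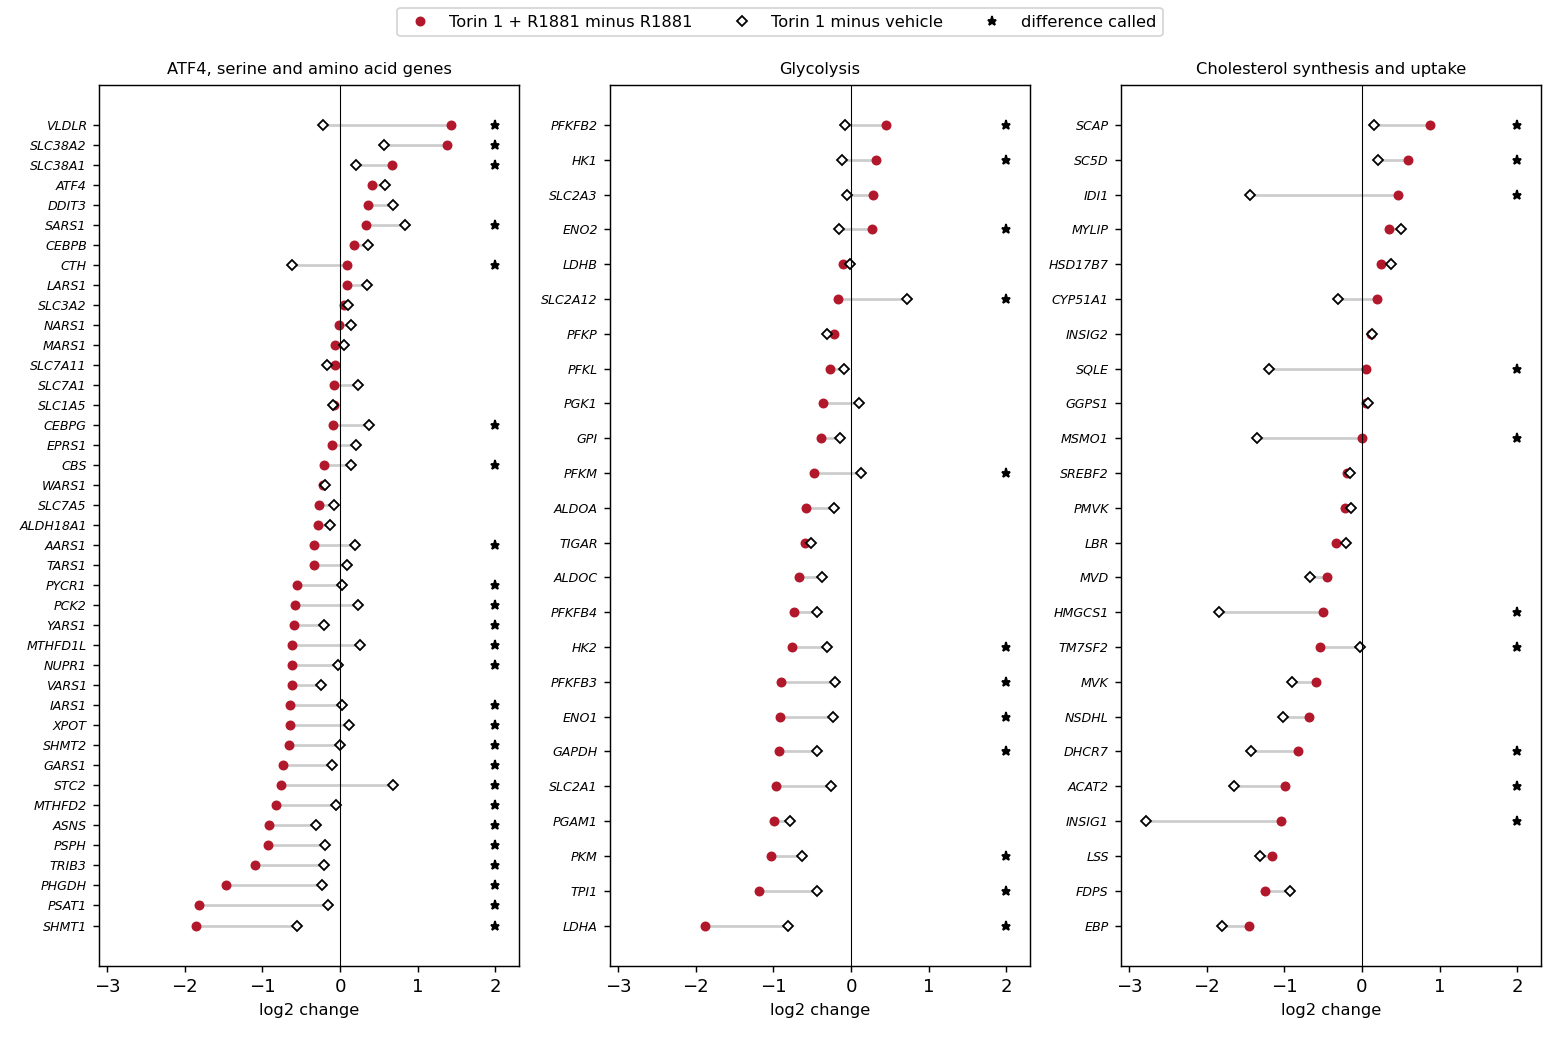
Log2 change of each measured gene of 3 lists for Torin 1 + R1881 minus R1881 (red circles) and Torin 1 minus vehicle (open diamonds), ordered by the first, with a star where the difference between the 2 changes was called. In the ATF4 list PSAT1 fell by 1.81 with R1881 and changed by -0.15 without it, and in the cholesterol list INSIG1 fell by 1.04 with R1881 and by 2.79 without it.

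Glycolysis fell from uptake to lactate. Of 24 glycolysis genes 15 were called lower (62.5%, against 22.3% of all genes) and 4 higher (16.7%, against 23.1%), with a median of -0.59. LDHA, which makes lactate, was at 10.92, 10.86 and 10.997 in Torin 1 + R1881 cells, against 12.86, 12.80 and 12.75 in R1881 cells, and it fell 3.67-fold (log2 -1.88 ± 0.07, SE, adjusted p = 2.04e-10), with -0.78 and -1.69 on its other probes. The glucose carrier SLC2A1 fell 1.95-fold, HK2, a hexokinase, 1.7-fold, and TPI1, triosephosphate isomerase, 2.27-fold. ENO1, enolase, fell 1.88-fold (log2 -0.91 ± 0.07, SE, adjusted p = 2.76e-07), and PKM, pyruvate kinase, fell 2.05-fold (log2 -1.03 ± 0.09, SE, adjusted p = 6.32e-07). The rises were those of HK1, ENO2, SLC2A3 and PFKFB2, at 1.21-fold to 1.36-fold. Torin 1 against vehicle called 10 members lower and 1 higher (median -0.23), where 15.6% and 16.2% of all genes were. The difference was called more negative with R1881 for 9 of 24 members and more positive for 3, where 7.09% and 7.87% of all genes were. For LDHA it was -1.06 ± 0.10 (adjusted p = 1.55e-05).

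Hypoxia-inducible genes overlap with this group. Of 30, 16 were called lower (53.3%, against 22.3% of all genes) and 3 higher (10%, against 23.1%), and the median was -0.37. BHLHE40, a clock and hypoxia repressor, had levels of 6.33, 6.31 and 6.49 in Torin 1 + R1881 cells, against 9.10, 9.04 and 9.04 in R1881 cells, and it fell 6.43-fold (log2 -2.69 ± 0.09, SE, adjusted p = 8.28e-11). The factor gene HIF1A fell 1.29-fold and VEGFA, a vascular growth factor, 1.56-fold, while VLDLR rose 2.7-fold. In the pentose phosphate and NADPH list 10 of 14 fell (71.4%, against 22.3% of all genes) and PGLS rose. IDH1, the cytosolic isocitrate dehydrogenase, was at 10.04, 9.98 and 9.86 in Torin 1 + R1881 cells, against 11.75, 11.52 and 11.44 in R1881 cells, and it fell 3.04-fold (log2 -1.60 ± 0.09, SE, adjusted p = 1.77e-08). NNT, the mitochondrial transhydrogenase, was undetected in Torin 1 + R1881 cells and at least 2.77-fold lower.

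Mitochondrial genes fell less steeply. In the TCA cycle and pyruvate entry list 17 of 27 were called lower (63%, against 22.3% of all genes), with a median of -0.28. OGDH, the oxoglutarate dehydrogenase, was the 1 member called higher. SUCLG2, a succinyl-CoA ligase subunit, fell 1.64-fold (log2 -0.72 ± 0.08, SE, adjusted p = 6.11e-06), and the pyruvate dehydrogenase genes PDHB and DLAT fell 1.46-fold and 1.41-fold. Of 67 oxidative phosphorylation subunits 29 fell (43.3%, against 22.3%), none rose and 38 were not called, with a median of -0.22. ATP5MC1, a ring subunit of ATP synthase, had levels of 9.05, 9.17 and 9.13 in Torin 1 + R1881 cells, against 10.33, 10.59 and 10.38 in R1881 cells, and it fell 2.49-fold (log2 -1.32 ± 0.08, SE, adjusted p = 3.11e-08). CYC1, cytochrome c1, fell 1.8-fold (log2 -0.84 ± 0.07, SE, adjusted p = 6.95e-07), and UQCR11, also of complex III, fell 2.06-fold.

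Lipid synthesis genes, many of them targets of SREBP factors, fell more often than they rose. Of 26 fatty acid genes 15 were called lower (57.7%, against 22.3% of all genes) and 5 higher (19.2%, against 23.1%), with a median of -0.53. ELOVL6, an elongase, was at 6.72, 6.63 and 6.61 in Torin 1 + R1881 cells, against 8.68, 8.52 and 8.53 in R1881 cells, and it fell 3.8-fold (log2 -1.93 ± 0.08, SE, adjusted p = 7.34e-10). LPIN1, a phosphatidate phosphatase, fell 2.95-fold (log2 -1.56 ± 0.08, SE, adjusted p = 3.62e-09), and FADS2, a desaturase, fell 2.9-fold (log2 -1.54 ± 0.09, SE, adjusted p = 2.24e-08). SCD fell 2.26-fold, the SREBP-1 gene SREBF1 2.06-fold and FASN, fatty acid synthase, 1.76-fold. ELOVL7 went the other way and rose 2.25-fold.

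In cholesterol synthesis and uptake 12 of 24 fell (50%, against 22.3% of all genes) and 4 rose (16.7%, against 23.1%), with a median of -0.28. EBP, a sterol isomerase, was at 8.47, 8.29 and 8.30 in Torin 1 + R1881 cells, against 9.83, 9.70 and 9.88 in R1881 cells, and it fell 2.73-fold (log2 -1.45 ± 0.09, SE, adjusted p = 4.37e-08). FDPS, which makes farnesyl diphosphate, fell 2.37-fold (log2 -1.25 ± 0.10, SE, adjusted p = 2.49e-07), and LSS, lanosterol synthase, fell 2.23-fold (log2 -1.16 ± 0.09, SE, adjusted p = 1.62e-07), with -0.20 on its other probe. INSIG1, which retains SREBPs in the ER, fell 2.06-fold. SQLE and MSMO1 were not called (0.05 and 0.00), while IDI1 rose 1.38-fold and SCAP, the SREBP escort, 1.83-fold. Torin 1 against vehicle gave a median of -0.78 in this list, and the difference was called more positive with R1881 for 9 of 24 members and more negative for 1, where 7.87% and 7.09% of all genes were. For INSIG1 the change was -2.79 without R1881 and the difference 1.75 ± 0.15 (adjusted p = 8.24e-06).

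Nucleotide synthesis fell without exception among called members, 19 of 23 (82.6%, against 22.3% of all genes), with a median of -0.42. CTPS1, CTP synthase, had levels of 7.01, 6.93 and 6.92 in Torin 1 + R1881 cells, against 8.14, 8.04 and 8.01 in R1881 cells, and it fell 2.16-fold (log2 -1.11 ± 0.07, SE, adjusted p = 3.34e-08). NME1, a nucleoside diphosphate kinase, fell 2-fold (adjusted p = 3.92e-07), and PPAT, the entry enzyme of purine synthesis, fell 1.95-fold. DHODH, ADSS1, PRPS2 and CAD were not called.

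Ribosome assembly genes mostly fell, while most ribosomal protein genes were not called. Of 56 ribosome biogenesis genes 39 were called lower (69.6%, against 22.3% of all genes) and 3 higher (5.36%, against 23.1%), with a median of -0.43. NOP16, a nucleolar protein, was at 7.55, 7.36 and 7.41 in Torin 1 + R1881 cells, against 8.49, 8.45 and 8.55 in R1881 cells, and it fell 2.08-fold (log2 -1.06 ± 0.08, SE, adjusted p = 2.75e-07). IMP4, of the small subunit processome, fell 2.15-fold (log2 -1.10 ± 0.09, SE, adjusted p = 6.93e-07), and RRS1, of large subunit assembly, fell 1.83-fold (log2 -0.87 ± 0.09, SE, adjusted p = 4.35e-06). FBL, the methyltransferase fibrillarin, fell 1.36-fold and DKC1, the pseudouridine synthase dyskerin, 1.2-fold, while UBTF, POLR1D and TAF1D, of RNA polymerase I transcription, rose 1.22-fold to 1.5-fold. Torin 1 against vehicle called 13 lower and 7 higher (median -0.11), where 15.6% and 16.2% of all genes were. The difference was called more negative with R1881 for 14 of 56 members and more positive for 1, beside 7.09% and 7.87% of all genes. Of 69 cytosolic ribosomal protein genes 50 were not called, 13 rose (18.8%) and 6 fell (8.7%), with a median of 0.07. Both shares lie below those of all genes (23.1% and 22.3%). RPL23 rose 1.73-fold (log2 0.79 ± 0.08, SE, adjusted p = 3.57e-06), RPL29 fell 2.22-fold (log2 -1.15 ± 0.08, SE, adjusted p = 6.45e-08) and RPL36A fell 2.33-fold, and near-identical pseudogene copies of such genes can share a probe.

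The E-box CACGTG, the letters that MYC and related factors bind, was in 17 of 49 ribosome biogenesis promoters (34.7%), against 10.4% of tested genes' promoters. It was also in 26.5% of the promoters of the FOXO targets and receptor feedback list, so it is not particular to ribosome biogenesis. IMP4 is printed as a called member with a match, among those with the smallest adjusted p (chr2:130342647-130342946, plus strand, GRCh38.p14, RefSeq, with matches in capitals at -203 and 15 from the start).
IMP4: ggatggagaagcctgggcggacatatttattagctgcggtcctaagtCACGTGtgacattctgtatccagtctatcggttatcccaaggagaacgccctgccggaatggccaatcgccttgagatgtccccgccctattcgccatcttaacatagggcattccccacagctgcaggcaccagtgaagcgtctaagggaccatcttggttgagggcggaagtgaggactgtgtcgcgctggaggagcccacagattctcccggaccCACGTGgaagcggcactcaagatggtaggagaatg
Of 47 translation factors 11 were called higher and 9 lower, and these shares of 23.4% and 19.1% lie near those of all genes (23.1% and 22.3%). EIF4B, a helicase cofactor, was at 11.54, 11.51 and 11.55 in Torin 1 + R1881 cells, against 10.66, 10.77 and 10.85 in R1881 cells, and it rose 1.71-fold (log2 0.77 ± 0.07, SE, adjusted p = 1.36e-06). EEF2, the translocation factor, rose 1.55-fold (log2 0.63 ± 0.09, SE, adjusted p = 6.92e-05), while EIF5A, the hypusine-bearing factor, fell 1.58-fold (log2 -0.66 ± 0.07, SE, adjusted p = 3.73e-06). In polyamine metabolism 5 of 19 rose and 6 fell (26.3% and 31.6%, against 23.1% and 22.3% of all genes). SRM, spermidine synthase, fell 1.81-fold (log2 -0.86 ± 0.10, SE, adjusted p = 1.93e-05), and DHPS, which starts hypusine formation, rose 1.51-fold (log2 0.59 ± 0.08, SE, adjusted p = 3.91e-05).

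Of 43 autophagy genes 18 were called higher (41.9%, against 23.1%) and 5 lower, with a median of 0.17 that was 0.072 with no background correction. ULK1, the kinase that starts autophagy and that complex 1 restrains, had levels of 10.14, 10.15 and 10.13 in Torin 1 + R1881 cells, against 9.49, 9.36 and 9.34 in R1881 cells, and it rose 1.68-fold (log2 0.75 ± 0.08, SE, adjusted p = 4.52e-06). Its scaffold RB1CC1 rose 1.78-fold (log2 0.83 ± 0.08, SE, adjusted p = 1.74e-06), and MAP1LC3A, an LC3 that coats the autophagosome, rose 1.56-fold (log2 0.65 ± 0.08, SE, adjusted p = 2.44e-05). MAP1LC3B rose 1.74-fold and GABARAPL1 1.53-fold. In the list of the lysosome and vacuolar ATPase 10 of 53 rose and 10 fell, and each share of 18.9% lies near that of all genes. GLA, an alpha-galactosidase, fell 2.67-fold (log2 -1.42 ± 0.10, SE, adjusted p = 1.82e-07), CTSH, a cathepsin, fell 1.77-fold (log2 -0.83 ± 0.08, SE, adjusted p = 3.69e-06) and IDS, a sulfatase, rose 1.83-fold (log2 0.87 ± 0.08, SE, adjusted p = 1.91e-06), with 0.76 and 0.21 on its other probes.

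Of 42 protein folding genes of the ER 21 were called higher (50%, against 23.1% of all genes). None was called lower (up to 2 under another scaling), and the median was 0.25. DNAJC10, an ER reductase, was at 9.60, 9.59 and 9.65 in Torin 1 + R1881 cells, against 8.76, 8.74 and 8.79 in R1881 cells, and it rose 1.8-fold (log2 0.85 ± 0.07, SE, adjusted p = 7.35e-07). CREB3L2, a membrane-bound transcription factor, rose 1.99-fold (log2 0.99 ± 0.09, SE, adjusted p = 1.07e-06), and PPP1R15A, a subunit of the phosphatase that reverses the stress block on translation, rose 1.88-fold (log2 0.91 ± 0.11, SE, adjusted p = 1.45e-05). The chaperone HSPA5 and the factor XBP1 were not called (-0.06 and 0.11). The difference from the effect without R1881 was called more positive for 11 of 42 members and more negative for none, where 7.87% and 7.09% of all genes were. Of 35 proteasome genes 18 were called lower (51.4%, against 22.3% of all genes) and 3 higher (8.57%, against 23.1%). PSME3 was 1.97-fold, PSME2 1.8-fold and the immunoproteasome subunit PSMB10 1.53-fold lower.

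Genes listed as androgen-induced moved both ways when mTOR was inhibited as well. Of 61 such genes 34 were called higher (55.7%) and 12 lower (19.7%), against 23.1% and 22.3% of all genes. The median was 0.31. This list was assembled with its response in these arrays known, so nothing is read from these shares. NCAPD3, a condensin II subunit, was at 11.13, 11.02 and 11.12 in Torin 1 + R1881 cells, against 9.60, 9.48 and 9.49 in R1881 cells, and it rose 2.96-fold (log2 1.57 ± 0.08, SE, adjusted p = 8.84e-09). LIFR, a cytokine receptor, rose 3.15-fold, the metalloreductase STEAP4 2.77-fold, ERRFI1, a feedback inhibitor of EGFR, 2.76-fold, and ZBTB16 2.69-fold. Classical markers moved little. KLK3, prostate-specific antigen, was at 8.22, 8.10 and 7.88 in Torin 1 + R1881 cells, against 7.95, 7.71 and 7.39 in R1881 cells, groups that overlap, and its change of 0.38 ± 0.14 (adjusted p = 0.0456) lost its call under 6 of 18 alternatives, including those without Torin 1 + R1881 replicate 1 or 2 or R1881 replicate 2 or 3 (0.23 without R1881 replicate 3). KLK2 stood at 8.46, 8.49 and 8.54 in Torin 1 + R1881 cells, against 8.74, 8.64 and 8.73 in R1881 cells and was not called (-0.20 ± 0.09, adjusted p = 0.0655). Its groups did not overlap, however, and 3 of 18 alternatives called it lower. TMPRSS2, a membrane protease, rose 1.19-fold (log2 0.25 ± 0.08, SE, adjusted p = 0.0213), a call lost under 3 of 18 alternatives, which were those without Torin 1 + R1881 replicate 2 or 3 or R1881 replicate 3. FKBP5, a receptor co-chaperone, was not called (0.15 ± 0.10).

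The members that fell included GNMT 2.25-fold, ARHGAP28 2.24-fold and ALDH1A3 1.89-fold. TUBA3D had levels of 8.07, 7.92 and 7.83 in Torin 1 + R1881 cells, against 9.71, 9.71 and 9.73 in R1881 cells and fell 3.43-fold (log2 -1.78 ± 0.09, SE, adjusted p = 3.79e-09), and TUBA3E fell 3.59-fold (log2 -1.84 ± 0.10, SE, adjusted p = 6.13e-09), though these tubulin genes are near copies whose probes may share signal. The difference between the effects with and without R1881 was called more positive with R1881 for 26 of 61 androgen-induced genes and more negative for 11, where 7.87% and 7.09% of all genes were. Members such as TUBA3E were undetected on every array without R1881, so their effect there could not be measured, and with the list chosen for its response to R1881 nothing is read from this count. Of 28 genes listed as androgen-repressed 6 rose and 9 fell (21.4% and 32.1%, against 23.1% and 22.3%). None of the 3 members named next was called lower by R1881 itself, which against vehicle gave 0.33 for PEG3, 0.52 for TMEFF2, called higher, and -0.08 for TLE1. PEG3, an imprinted zinc finger gene, fell 5.82-fold (log2 -2.54 ± 0.13, SE, adjusted p = 5.5e-09), TMEFF2, a membrane proteoglycan, fell 2.05-fold (log2 -1.03 ± 0.08, SE, adjusted p = 3.44e-07), and the corepressor TLE1 rose 2.18-fold (log2 1.12 ± 0.10, SE, adjusted p = 1.27e-06).

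**Figure D4:**
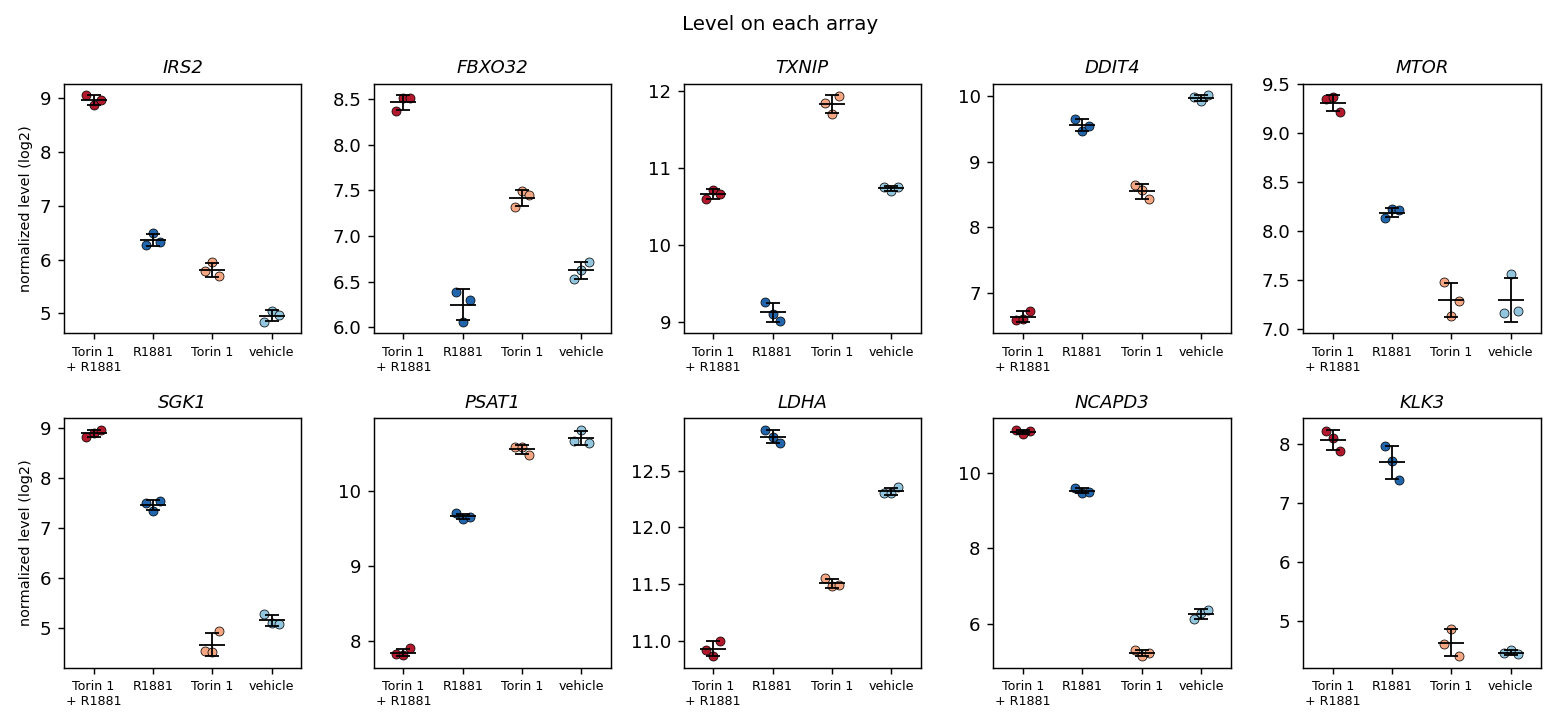
Normalized log2 level of 10 genes on each of the 12 arrays, with the mean and SD of each group (n = 3) as black bars, and groups in the order Torin 1 + R1881, R1881, Torin 1, vehicle. PSAT1 and DDIT4 are lowest with Torin 1 + R1881, IRS2, MTOR, SGK1 and NCAPD3 are highest there, and KLK3 is near the background in both groups without R1881.

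Of 18 receptor cofactors and lineage factors 10 were called higher (55.6%, against 23.1%) and 3 lower, with a median of 0.43. That median depended on the settings: it was 0.158 with no background correction and 0.062 with no filter on detection, and 12 of 18 alternatives moved it beyond the spread between replicates. SOX9, a lineage factor, was at 7.67, 7.63 and 7.65 in Torin 1 + R1881 cells, against 5.88, 5.79 and 5.90 in R1881 cells, and it rose 3.45-fold (log2 1.79 ± 0.10, SE, adjusted p = 1.36e-08). FOXA1, the pioneer factor of the androgen receptor, had levels of 12.27, 12.39 and 12.43 in Torin 1 + R1881 cells, against 11.85, 11.76 and 11.86 in R1881 cells, and it rose 1.46-fold (log2 0.54 ± 0.07, SE, adjusted p = 3.51e-05). SPDEF, a prostate epithelial factor, rose 1.8-fold (log2 0.85 ± 0.07, SE, adjusted p = 9.5e-07), and the acetyltransferase CREBBP rose 1.62-fold (log2 0.69 ± 0.09, SE, adjusted p = 2.9e-05), with -0.05 on its other probe. HOXB13 was not called (-0.16 ± 0.13). Of 14 luminal epithelial markers 3 rose and 3 fell, near the shares of all genes (21.4% and 21.4%). KRT8 rose 1.35-fold (log2 0.43 ± 0.08, SE, adjusted p = 0.000867), and CD24 rose 2.7-fold (log2 1.43 ± 0.08, SE, adjusted p = 1.92e-08), with 0.53 on its other probe. ACP3, prostatic acid phosphatase, fell 1.5-fold (log2 -0.59 ± 0.10, SE, adjusted p = 0.000278), and KRT19 was undetected in Torin 1 + R1881 cells and at least 1.83-fold lower. KRT18, EPCAM, CDH1 and FOLH1 were not called, though EPCAM was called under 1 of 18 alternatives and FOLH1 under 3.

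Markers of other cell types gave little. Of 7 measured neuroendocrine markers, DDC, EZH2 and TUBB3 fell 1.31-fold to 1.85-fold, and ENO2 and ONECUT2 rose 1.21-fold and 1.31-fold. These are 42.9% lower and 28.6% higher, against 22.3% and 23.1% of all genes. Of 4 measured basal markers DSC3 rose 1.51-fold. Of 6 stromal markers ACTA2, smooth muscle actin, was at 7.33, 7.24 and 7.54 in Torin 1 + R1881 cells, against 8.43, 8.45 and 8.62 in R1881 cells, and it fell 2.18-fold (log2 -1.13 ± 0.10, SE, adjusted p = 1.57e-06), and S100A4, near background in both groups, was at least 1.01-fold lower. Neither measured immune marker was called.

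In the next lists shares are to be read against 23.1% higher and 22.3% lower among all genes. Of 25 p53 targets 8 rose and 4 fell (32% and 16%). GDF15, a stress cytokine, rose 1.96-fold (log2 0.97 ± 0.08, SE, adjusted p = 4.46e-07), and XPC, of nucleotide excision repair, rose 2.23-fold (log2 1.16 ± 0.10, SE, adjusted p = 1.36e-06). Of 30 interferon and MHC class I genes 11 rose and 5 fell (36.7% and 16.7%), with ISG20 at 2.23-fold and HLA-B at 2.02-fold higher and IFI6 at 1.64-fold lower. Of 19 NRF2 genes 4 rose and 6 fell (21.1% and 31.6%). GCLC, of glutathione synthesis, rose 2.28-fold (log2 1.19 ± 0.11, SE, adjusted p = 1.44e-06), and TXN, thioredoxin, fell 1.5-fold (log2 -0.59 ± 0.08, SE, adjusted p = 5.18e-05). Of 26 histone genes 14 rose and 5 fell (53.8% and 19.2%). H2AC8 rose 2.24-fold (log2 1.16 ± 0.10, SE, adjusted p = 7.68e-07) and H2AZ1, a variant histone of dividing cells, fell 1.78-fold (log2 -0.83 ± 0.08, SE, adjusted p = 1.74e-06), and probes of these near-identical genes may share signal. Of 15 circadian clock genes 4 rose and 3 fell (26.7% and 20%, near all genes), with NR1D2 1.9-fold higher. In the list of stress and RNA quality genes 5 of 22 rose and 7 fell (22.7% and 31.8%), and MT1G, a metallothionein, fell 3.48-fold (log2 -1.80 ± 0.09, SE, adjusted p = 2.36e-09). Their part in the other results was not tested.

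The effect of Torin 1 in cells without androgen, a contrast that shares no array with the one above, overlapped with it. Torin 1 against vehicle called 3667 genes (31.8%), 1865 higher (16.2%) and 1802 lower (15.6%), and 2475 genes were called the same way in both and 118 in opposite ways. Across genes the 2 log2 changes had a Pearson's r of 0.721 and a Spearman's rho of 0.61 over 11517 genes, which are not independent replicates. The difference of the 2 effects, tested as an interaction, was called for 1722 genes (15%), 906 positive (7.87%) and 816 negative (7.09%), and 1448 of these were also called in the main contrast.

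Large differences fell on named genes. NCAPD3 rose with R1881 and fell without it: it had 5.31, 5.13 and 5.23 in Torin 1 cells, against 6.12, 6.28 and 6.37 in vehicle cells, and the difference was 2.60 ± 0.12 (adjusted p = 6.53e-08). ATAD2, a chromatin ATPase, showed the same turn, 0.86 with R1881 and -1.67 without, and so did CLDN8, a claudin, with 1.25 and -1.04. MTOR changed by 0.00 without R1881, a difference of 1.12 ± 0.16 (adjusted p = 0.000546). SGK1, detected on 1 of 3 Torin 1 arrays, changed by -0.49 without R1881 and the difference was 1.93 ± 0.16 (adjusted p = 4.93e-06). ACTA2 turned the other way, -1.13 with R1881 and 1.16 without, and CRCP fell with R1881 and was not called without it (0.77), with a wide error of the difference (-2.13 ± 0.40) and other probes at -0.06 and -0.23 in the main contrast. For ANGPT2, NBL1, FOS, IGF1R, KRT19, TUBA3C, TUBA3E, NNT and the lipase gene PNLIP no array without R1881 was above background, so their differences set a measured change against levels that could not be measured. EXO1 and NCAPG were undetected on all arrays with Torin 1, with and without R1881, and TOP2A on all but 1, so their falls end at the background in both contrasts and the differences between them were not measured.

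**Figure D5:**
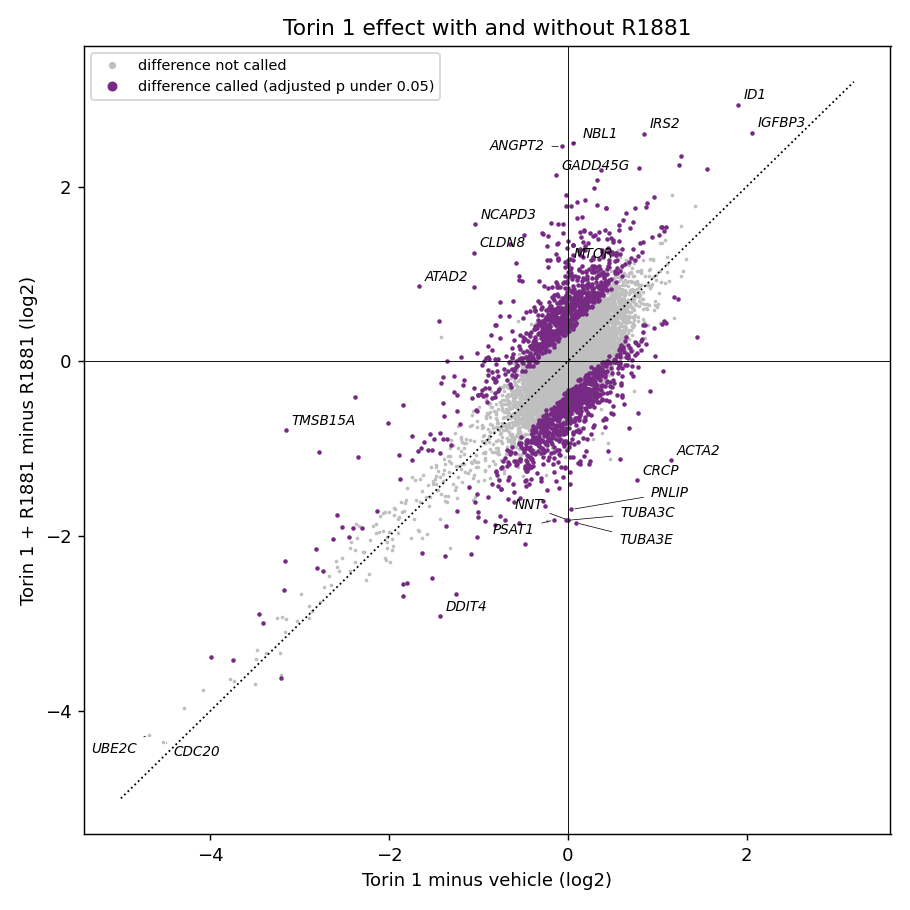
Log2 change of each of the 11517 genes for Torin 1 + R1881 minus R1881 (vertical axis) against Torin 1 minus vehicle (horizontal axis), with purple points where the difference was called (1722 genes) and a dotted line of equal effects. Cell division genes such as CDC20 and UBE2C lie near the line at the lower left, and NCAPD3, ATAD2 and CLDN8 lie above it while ACTA2 and PNLIP lie below it.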

How the data were processed

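Per the file headers, the authors deposited a signal intensity and a detection p-value for each probe and array, and a processed log2 table. How that table was normalized is not stated in these sources, and it served as an alternative only. The deposited intensity was corrected with the normexp model (background from the detection p-values, offset 16), quantile normalized and log2 transformed in limma 3.58.1 (R 4.3.3). Low levels are compressed by the offset, so folds of dim genes are understated. The probe with the highest mean stood for a gene, and 5276 kept probes without 1 symbol were left out. One limma model with 4 group means (8 residual degrees of freedom) gave the contrasts and the interaction. The model held no replicate term. Deviations from the group mean correlated at -0.0235, 0.0222 and 0.151 between Torin 1 + R1881 and R1881 arrays of the same replicate number. Arrays of unlike number were not set beside these, so whether replicate numbers pair the arrays cannot be told. Where no array of a group detected a gene, a fold is a bound: the mean of the other group against the mean over its arrays of the lowest detected level or, if higher, its own level. Named genes are the 12 largest rises and falls without overlap, 3 members with the smallest adjusted p per list with 3 or more called, the 6 largest interactions each way and fixed names. Further list members in the text were picked by role. Promoter motifs were searched in further lists as well, and only some pairs of motif and list are given with the results. Of the rest, the letters TCACNCCAC, searched for SREBP factors, were in 1 of 22 cholesterol promoters (4.55%, against 1.12% of tested genes' promoters). Members and lists were chosen with earlier results of these data known. The fit was tested on simulated data. An exact permutation of 3 against 3 arrays cannot go below 0.1 two-sided and was not run.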

Additional observations from a re-analysis of the deposited data

Results flagged for a closer look

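The effect of Torin 1 differed with and without R1881 for 86 of the 147 named genes in the interaction test of the limma fit, 48 with a more positive and 38 with a more negative change in Torin 1 + R1881 against R1881 cells than in Torin 1 against vehicle cells. Over all genes the share was 15%, and the named genes were chosen in part for the size of this difference or for a small adjusted p in the main contrast, so the larger share among them is no result. Values below are that difference in log2. Among the growth and receptor signalling genes it was 1.93 for SGK1, 1.75 for IRS2, 1.42 for FBXO32, 1.12 for MTOR, 1.00 for SOCS2, 0.48 for IGF1R, 0.55 for IGFBP3, 0.44 for TXNIP, -0.38 for CCND1, -0.61 for MYC and -1.49 for DDIT4. For the immediate early, ID, BMP and growth arrest genes it was 2.43 for NBL1, 2.26 for GADD45G, 1.66 for EGR1, 1.27 for FOS, 1.03 for ID1, 1.00 for ID3, 0.43 for SPRED1 and 0.65 for GDF15. Among the secreted, adhesion and surface genes it was 2.52 for ANGPT2, 2.29 for CLDN8, 1.09 for HS3ST1, 1.00 for MDK, 0.65 for NLGN1, 1.15 for CD24 and -1.73 for the secreted lipase PNLIP. Genes of enzymes and other proteins from the largest changes gave 2.37 for TMSB15A, 1.83 for OTULINL, 1.75 for FMO4, -2.13 for CRCP, -2.29 for ACTA2, 0.62 for TUBB3, -0.78 for TUBA3D, -1.80 for TUBA3C and -1.93 for TUBA3E. Division and chromatin genes gave 2.60 for NCAPD3, 2.52 for ATAD2, 0.61 for TOP2A, 0.49 for EXO1, 0.33 for NCAPG, -0.42 for MELK, 0.74 for H1-10 and 0.70 for H2AC8. EXO1 and NCAPG were undetected on all arrays with Torin 1, with and without R1881, and TOP2A on all but 1, so these 3 values do not measure a difference between effects. For ANGPT2, NBL1, FOS, IGF1R, KRT19, TUBA3C, TUBA3E, NNT and PNLIP no array without R1881 was above background. For lineage and androgen-linked genes it was 1.47 for SOX9, 0.64 for KRT8, 0.48 for SPDEF, 0.44 for FKBP5, 0.41 for CREBBP, 0.34 for FOXA1, -0.44 for KLK2, -1.38 for ACP3, -1.18 for KRT19 and -0.74 for PEG3. Autophagy, lysosome, folding and proteasome genes gave 0.60 for ULK1, 0.35 for RB1CC1, 0.45 for IDS, -0.69 for CTSH, 0.51 for DNAJC10, 0.59 for CREB3L2, 0.59 for PPP1R15A, -0.51 for PSME3 and -0.57 for PSMB10. Serine, glycolysis and mitochondrial genes gave -1.66 for PSAT1, -1.25 for PHGDH, -1.30 for SHMT1, -0.78 for MTHFD2, -1.06 for LDHA, -0.68 for ENO1, -0.40 for PKM, -1 for IDH1, -1.82 for NNT, -0.38 for SUCLG2, -0.66 for ATP5MC1 and -0.67 for CYC1. Nucleotide and ribosome genes gave -0.57 for CTPS1, -0.52 for NME1, -0.41 for NOP16, -0.69 for IMP4, -0.54 for RRS1, -0.69 for RPL29 and -0.74 for RPL36A. Antioxidant, interferon and clock genes gave 0.92 for GCLC, -0.49 for GSR, 0.90 for ISG20, 0.66 for CSNK1E and -0.85 for BHLHE40.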

How the results depend on the processing

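No count of called genes moved by more than 1.5 times under any alternative run. Genes higher in Torin 1 + R1881 cells numbered 2449 to 2720 and lower 2388 to 2651 over the settings that kept all 12 arrays, and leaving out 1 array gave 2360 to 2510 higher and 2317 to 2377 lower. With the replicate block the counts were 2635 and 2530, and 803 and 737 for the interaction, so it changed no count by over 1.5 times, but it ended the interaction calls of CREBBP, FOXA1, NCAPG, NOP16, PKM and RB1CC1. Of 134 named genes called in the main contrast, 131 kept the call under every alternative that tested them, and KLK3, MLST8 and TMPRSS2 did not. The alternatives were 18, except for IGF1R, which was tested in 17. Of 13 not called, 3 were called under some alternatives: KLK2, EPCAM and FOLH1. Likewise 20 of 61 named interactions not called were called under some alternatives. Of 86 named interactions called, 65 kept the call under all 17 and 21 did not. The calls were lost with no background correction for ID3, IGF1R and MELK, with a normexp offset of 50 for IGF1R and MELK, with median scaling for FOXA1, IGF1R, IGFBP3 and TXNIP, in the authors' processed table for CREBBP, FKBP5, IGF1R, KLK2, MELK, NLGN1, PEG3, PKM and RPL36A, with no filter for FKBP5, with trended moderation for NCAPG and with the mean of probes for CREBBP, GSR, IDS and MELK, where GSR gave -0.016. Leaving out Torin 1 + R1881 replicate 1 ended those of CCND1, CREBBP, FKBP5, GSR, KLK2, NCAPG, PKM, RB1CC1, SPRED1 and SUCLG2. Without its replicate 2 it was those of CCND1, FKBP5, FOXA1, IDS, KLK2, NCAPG, NOP16, PKM, RPL36A, SUCLG2 and TXNIP, and without its replicate 3 those of CREBBP, FKBP5, FOXA1, GSR, IGFBP3, NCAPG, NOP16, PKM, RB1CC1, SPRED1, SUCLG2 and TXNIP. Leaving out R1881 replicate 1 ended those of CREBBP, GSR, KLK2, NCAPG, NOP16, PKM, RB1CC1, SPRED1 and SUCLG2, replicate 2 those of CREBBP, FKBP5, FOXA1, GSR, IGFBP3, NCAPG, PKM, RB1CC1, RPL36A, SUCLG2 and TXNIP and replicate 3 those of CCND1, FKBP5, IGFBP3, KLK2, NCAPG, NOP16, PKM, RB1CC1, RPL36A, SPRED1 and TXNIP. The interaction of MELK was -0.42 and turned to 0.066 in the authors' processed table, and the cause was not tested. Signs of list medians flipped between scalings for the IGF axis, polyamine, neuroendocrine and luminal lists only. The mitosis median lay between -2.06 and -0.942, smallest in size where no background was removed. With the same setting other medians were smaller by over 1.5 times: -0.281 for fatty acid, -0.162 for cholesterol and -0.28 for ribosome biogenesis genes and -0.221 for hypoxia-inducible genes. The BeadChip as a block was not run because the files name none. Genes near background are limited by signal, and 40 genes had kept probes called in opposite ways.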

Other observations

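Gene families were picked by symbol after the values were seen, so their shares are descriptive only. They are to be read against 23.1% higher and 22.3% lower among all genes. Of 13 measured genes with symbols of alpha and beta tubulins, 12 were lower in Torin 1 + R1881 cells (92.3%) and none higher. Their median was -1.40. The 1 not called was TUBA3FP, whose symbol is that of a pseudogene. TUBA3C, TUBA3D and TUBA3E are near copies whose probes may share signal. Tubulins are the building blocks of microtubules. TUBA4A stood at 5.69, 5.71 and 5.93 in Torin 1 + R1881 cells, against 8.36, 8.28 and 8.13 in R1881 cells, and TUBB at 9.29, 9.37 and 9.42 in Torin 1 + R1881 cells, against 11.11, 11.23 and 11.39 in R1881 cells. TUBA1B fell 4.38-fold, with an SE of 0.287 log2. Of 79 mitochondrial ribosomal protein genes 49 fell (62%) and 2 rose (2.53%), with a median of -0.35. Of 22 genes of the mitochondrial import complexes TIMM and TOMM 11 fell (50%) and 1 rose (4.55%), with a median of -0.40. Of 19 genes named CENP, mostly centromere proteins, 14 fell (73.7%) and 1 rose (5.26%), the rise being that of CENPN. The CENP median was -0.77, and -0.449 with 5 members that were undetected in 1 group set to their bound.

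Zinc finger genes went the other way: of 347 genes named ZNF 121 were higher and 22 lower (median 0.16), beside 23.1% and 22.3% of all genes. TRIM48, TRIM49C, TRIM49D1, TRIM49D2 and TRIM51, near copies whose probes may share signal, were higher and TRIM49B was not called (5 of 6, median 1.19). TRIM51 stood at 11.12, 11.15 and 11.13 in Torin 1 + R1881 cells, against 10.22, 10.08 and 10.17 in R1881 cells. Of 6 metallothioneins 4 fell (66.7%) and 1 rose (16.7%). No test beyond the fit was run on these families.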
